A study of Mus musculus with 2 samples.

Results

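The 10 genes described here encode the mechanistic target of rapamycin (mTOR) complexes and their immediate upstream regulators. They are the complex subunits Mtor, Rptor, Mlst8, Akt1s1, Deptor and Rictor and the regulators Tsc1, Tsc2, Rheb and Ddit4. They were taken by gene symbol from a table of 21542 genes, and all 10 were found. RNA was sequenced from MIN6 cells, an insulin-producing mouse insulinoma line labelled C57BL/6 and used in place of primary beta cells. The compared groups were cells transfected with a GR (glucocorticoid receptor) expression vector and cells transfected with a control vector, with 1 library in each group. Both received 4 ug of plasmid with Lipofectamine 2000 per dish, in DMEM culture at 25 mM glucose and 15% serum. The promoter of the vector, the form of the GR cDNA, the share of cells transfected, the harvest time and any added steroid are not stated in the labels. Because each group is a single library, no difference below has a replicate check, and every interval covers counting error only.

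mTOR is a serine/threonine kinase that works in separate complexes. Complex mTORC1, built on Raptor (Rptor), promotes protein synthesis and restrains autophagy when amino acids, insulin and energy are plentiful. Complex mTORC2, built on Rictor, phosphorylates AKT and related kinases. The small GTPase Rheb switches mTORC1 on at the lysosome, and the TSC complex (Tsc1 and Tsc2) keeps Rheb inactive. Ddit4 (REDD1) promotes TSC action under stress, and in rodent muscle and in lymphoid cells it is induced by glucocorticoids. In beta cells mTORC1 supports growth and insulin production.

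The GR library held 18525668 reads over genes and the control library 18537326. Nr3c1, the gene of GR, had 5202 reads with the GR vector and 2645 with the control vector, a fold of 1.97 (95% interval 1.88 to 2.07). All 10 beta cell markers examined, among them Ins1, Ins2 and Pdx1, averaged 50 reads or more. They summed to 789572 reads with the GR vector and 835802 with the control vector. The largest difference in reads was that of Ins2 (373033 and 407986). Folds of the 10 lay on both sides of 1, from 0.917 for Ins2 to 1.04 for Pdx1. Markers of other cell types had far fewer reads. The alpha, delta and PP cell markers summed to 767 and 653 reads with the GR and the control vector (4 of 7 in the table). Most of these were reads of Gcg (623 and 537), followed by Sst (114 and 92). The exocrine markers had 13 and 7 reads (1 of 6 in the table), the immune markers 22 and 26 (2 of 5), and the fibroblast and endothelial markers 96 and 78 (3 of 5). Their part in the results below was not tested. In bulk RNA, fewer cells expressing a gene and less of its RNA per cell cannot be told apart.

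None of the 10 members differed by 1.2-fold or more between the libraries. Of the 12119 genes that averaged 50 reads or more, 7.99% passed that size in either direction, and among the 4651 genes as deeply read as the members the share was 0.473%. Member folds (GR over control vector) ran from 0.949 for Mlst8 to 1.14 for Rheb, with 6 above 1 and 4 below. The median log2 fold was 0.03 over the members and 0.0037 over the 12119 genes. Reads of all 10 together came to 17466 with the GR vector and 17118 with the control vector, a fold of 1.02 (1.002 to 1.05). That interval just leaves out 1. The largest difference in reads within the sum was that of Rheb (2244 and 1979), so the sum is not a separate result. In the authors' deposited table the adjusted p was 1 for each member, so 0 of 10 passed 0.05, against 0.0186% of all genes. The lowest unadjusted p of a member in the authors' deposited table was 0.654, for Rheb, so 0 of 10 were under an unadjusted 0.05, against 1.09% of all genes. Those deposited p-values rest on a preset spread, since none could be measured with single libraries.

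**Figure D1:**
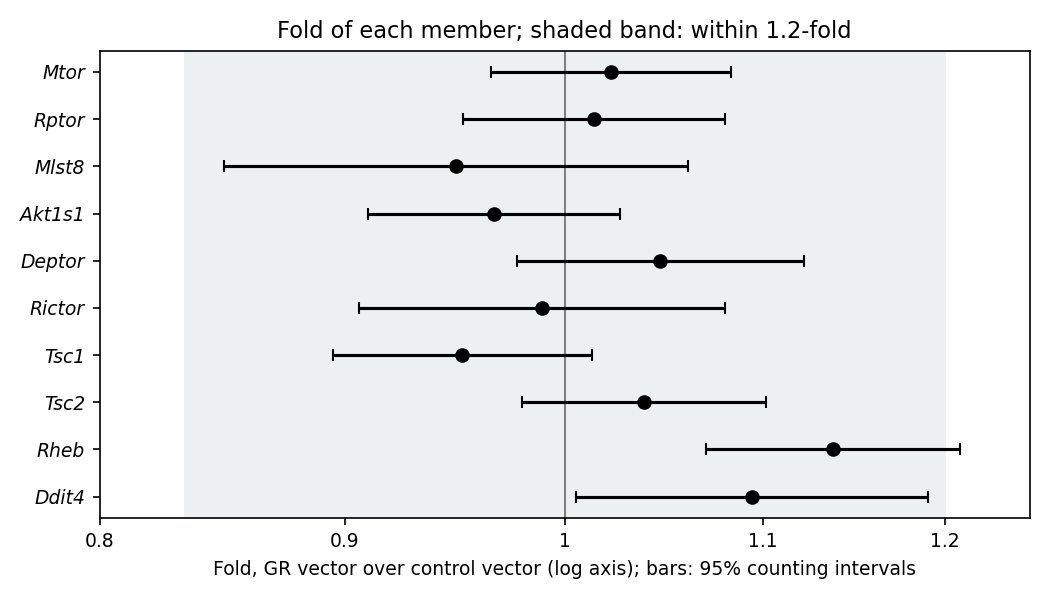
Fold (GR over control vector) for each member on a log axis, with exact 95% counting intervals from the reads of 1 library per group. The shaded band marks folds within 1.2; all 10 points lie inside it, and the intervals of Rheb and Ddit4 lie above 1.

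The core of mTORC1 was nearly equal in the libraries. Mtor, the kinase (ENSMUSG00000028991, chromosome 4, 148448611 to 148557683, plus strand), had 2383 reads with the GR vector and 2337 with the control vector, a fold of 1.02 (95% interval 0.966 to 1.08). Rptor, the scaffold that recruits substrates (ENSMUSG00000025583, chromosome 11, 119602905 to 119899576, plus strand), had 1993 reads with the GR vector and 1971 with the control vector (fold 1.01, 0.952 to 1.08). Both differences were within counting error. Mlst8, a beta-propeller subunit found in both complexes (ENSMUSG00000024142, chromosome 17, 24473550 to 24479078, minus strand), was the least read member. It had 620 reads with the GR vector and 655 with the control vector (fold 0.949, 0.849 to 1.06). Of its 31-mers (stretches of 31 bases) in the GENCODE annotation, 18.7% also occur in Bricd5. The deposited Mlst8 is shorter than that of GENCODE (3366 against 4435 bases). Whether its count includes the shared stretches is therefore not known. For the 5 mTORC1 genes together the fold was 1.01 (0.976 to 1.04).

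The folds of the inhibitory subunits lay on opposite sides of 1, both within counting error. Akt1s1 encodes PRAS40, which blocks substrate access to mTORC1 until AKT phosphorylates it (ENSMUSG00000011096, chromosome 7, 44848991 to 44855421, plus strand). It had 2089 reads with the GR vector and 2167 with the control vector (fold 0.967, 0.910 to 1.03), and its log2 fold of -0.05 became 0.01 when trends of GC content and transcript length over all genes were removed. Deptor binds the kinase and inhibits it (ENSMUSG00000022419, chromosome 15, 55112317 to 55259271, plus strand). It had 1685 reads with the GR vector and 1614 with the control vector (fold 1.05, 0.977 to 1.12). Both intervals include 1. Exons of Akt1s1 overlap Tbc1d17 on the opposite strand over 89 bases. Tbc1d17 had 1161 reads with the GR vector and 1279 with the control vector, and its part in the count of Akt1s1 was not tested. Exons of Deptor overlap Gm9920 over 303 bases, and Gm9920 had 19 reads with the GR vector and 11 with the control vector.

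The mTORC2 scaffold gene Rictor differed by less than counting error between the libraries and had a lower level per length than Rptor in each. Rictor (ENSMUSG00000050310, chromosome 15, 6708379 to 6800401, plus strand), had 1012 reads with the GR vector and 1026 with the control vector (fold 0.989, 0.906 to 1.08). Scaled by gene length, the level of Rptor over that of Rictor was 2.47 with the GR vector and 2.41 with the control vector, and the quotient of these ratios was 1.03 (0.921 to 1.14). The balance of the scaffolds thus differed by less than counting error. With the trends of GC content and transcript length removed, the folds lay further apart, at 0.936 for Rictor and 1.04 for Rptor. Mapkap1, which encodes the mTORC2 subunit SIN1, had 539 and 559 reads with the GR and the control vector (fold 0.967, 0.858 to 1.09). The subunit genes Prr5 (2 and 0 reads) and Prr5l (5 and 3 reads) were barely detected, and no fold is given for them.

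Rheb had the largest fold of the 10 members, except with the trends of GC content and transcript length removed, when Ddit4 was higher (1.13, against 1.11 for Rheb). Rheb (ENSMUSG00000028945, chromosome 5, 24802823 to 24842624, minus strand) had 2244 reads with the GR vector and 1979 with the control vector, a fold of 1.14 (95% interval 1.07 to 1.21). It was the 1 member past the library test, an exact two-sided binomial test of a gene's reads in the pair of libraries with Benjamini-Hochberg adjustment over all 21542 genes (adjusted p = 0.00357). That test compares these libraries, not the conditions. It called 2.72% of all genes (1.58% higher, 1.14% lower) and 4.52% of the 12119. Of the genes as deeply read as the members it called 3.57% (2.04% higher, 1.53% lower). The central 95% of log2 folds of those equally read genes spanned -0.17 to 0.18, and Rheb lay at 0.19, just past its upper end. Rheb transcripts hold 44.7% G and C. Genes under 45% had a median log2 fold of 0.06, and the library test called 6.59% of them. With the trends of GC content and transcript length removed, the fold of Rheb was 1.11. Few of its 31-mers (1.496%) occur in another gene.

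A further TSC subunit gene and the paralog of Rheb had folds below 1. Tbc1d7 encodes the third subunit of the TSC complex (chromosome 13, 43151740 to 43171501, minus strand). It had 432 reads with the GR vector and 531 with the control vector (fold 0.816, 0.717 to 0.928). Rhebl1, the paralog of Rheb (chromosome 15, 98877778 to 98894540, minus strand), had 233 reads with the GR vector and 286 with the control vector (fold 0.817, 0.684 to 0.975). Both were lower by more than 1.2-fold, a size that 3.96% of genes reached in that direction, and neither passed the library test (adjusted p = 0.0600 and 0.258). The level of Rheb per length was 3.79 times that of Rhebl1 with the GR vector and 2.72 times with the control vector. The quotient of these ratios was 1.39 (1.16 to 1.67, counting error only). It restates the folds of Rheb and Rhebl1, which lie on opposite sides of 1, and is not a further result. Of the 31-mers of Rhebl1, 15.7% are shared with other genes, against 1.495% for Tbc1d7.

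The sequence of the Rheb start region is shown because it holds the one CACGTG E-box found in the member promoters searched. Other forms of E-box were not searched. In the 250 bases before the RefSeq start (GRCm38.p6), the letters CACGTG occurred in 1 of 9 member promoters, that of Rheb, and in 6.02% of 32851 mouse promoters. Tbc1d7 holds the same letters, beside a fold in the other direction. Capitals mark CACGTG, which reads alike on both strands.
Rheb: gccgcgcgcggtCACGTGggtgtgttgttg
Tbc1d7: ccggttaacatcCACGTGtgggtgggactc
The Rheb stretch lies at chr5:24842440-24842469 on the minus strand, inside the span of the gene in the deposited table, and the Tbc1d7 stretch at chr13:43171537-43171566 on the minus strand. A match of letters is not a binding site.

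The TSC complex genes of the list differed by less than counting error. Tsc1, hamartin, stabilizes its partner (ENSMUSG00000026812, chromosome 2, 28641228 to 28691167, plus strand). It had 1966 reads with the GR vector and 2071 with the control vector (fold 0.952, 0.895 to 1.01). Tsc2, tuberin, is the GTPase-activating protein for Rheb (ENSMUSG00000002496, chromosome 17, 24595816 to 24632630, minus strand). It had 2320 reads with the GR vector and 2240 with the control vector (fold 1.04, 0.980 to 1.101). Exons of Tsc2 and of Pkd1 on the opposite strand overlap over 693 bases, and strand handling is not given, so reads there cannot be told apart. Of the 31-mers of Tsc2, 9.72% occur in another gene. Pkd1 had 4039 reads with the GR vector and 4062 with the control vector. The level of Rheb per length was 1.75 times that of Tsc1 with the GR vector and 1.46 times with the control vector (quotient 1.19, 1.096 to 1.30). Against Tsc2 the Rheb level was 1.21 times with the GR vector and 1.101 times with the control vector (quotient 1.09, 1.01 to 1.19). With the trends of GC content and transcript length removed, the fold was 1.11 for Rheb and 1.06 for Tsc2. No quotient was recomputed with those trends removed. Of 9 such gene pairs examined, chosen with earlier results known, 5 had an interval that left out 1. Each of the 5 held Rheb or Tsc1, but so did most of the 9 by choice. Pairs that share a gene are not separate results, and no share over all gene pairs was computed.

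Ddit4, the member known as a glucocorticoid-induced gene in other tissues, was slightly higher in the GR library without passing the library test. Ddit4 (ENSMUSG00000020108, chromosome 10, 59949669 to 59951834, minus strand) had 1154 reads with the GR vector and 1058 with the control vector, a fold of 1.09 (95% interval 1.01 to 1.19). Its adjusted p in the exact binomial library test was 0.322. Ddit4 and Rheb were the 2 of 10 members whose counting interval left out 1, which was also so for 18.7% of the 12119 genes, a share close to that of the members. With the GC and length trends removed the fold of Ddit4 was 1.13. None of its 31-mers occur in another gene.

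The stretch upstream of Ddit4 is shown as the promoter of the member where GR binding letters would be of most interest. The GR palindrome core ACANNNTGT was in 0 of 9 member promoters and in 5.84% of all promoters, and the half-site AGAACA, read on both strands, was in 0 of 9 and in 16.1%. These windows cover only 250 bases and say nothing of more distant elements. Capitals mark ACGTG, a form of the core letters of hypoxia response elements. On either strand it stood in 3 of 9 member promoters (Ddit4, Rheb and Rptor) and in 16.6% of all. The form GCGTG was not searched and stays in lower case. ACGTG is contained in the E-box CACGTG.
Ddit4: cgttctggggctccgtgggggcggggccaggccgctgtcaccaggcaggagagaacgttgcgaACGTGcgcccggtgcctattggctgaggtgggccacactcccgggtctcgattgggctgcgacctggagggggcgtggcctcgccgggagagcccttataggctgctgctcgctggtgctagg
This stretch of 186 bases lies at chr10:59951835-59952020 on the minus strand (GRCm38.p6, RefSeq promoter table) and ends where the deposited gene begins. No entry for Deptor was used.

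Levels per gene length kept nearly the same order in the libraries. On the RPKM scale, which divides reads by gene length and library total, Akt1s1 had the highest level, 36.7 with the GR vector and 38.0 with the control vector. Ddit4 followed with 35.5 and 32.5, and its counting interval overlapped that of Akt1s1 in the GR library but not in the control library. Rheb came next, at 15.7 with the GR vector and 13.8 with the control vector. Tsc2 (13.0 and 12.5) and Mtor (12.7 and 12.5) followed it, and their intervals overlapped in each library. Deptor had 10.3 and 9.80 and Mlst8 9.95 and 10.5, so this pair swapped places, with overlapping intervals. Tsc1 had 8.98 and 9.43, Rptor 7.995 and 7.88, and Rictor was lowest at 3.23 with the GR vector and 3.27 with the control vector. The deposited length of Rptor is 13471 bases and its longest transcript 6594, against 10109 and 8564 for Mtor. The order between genes therefore depends on the length used, which the counting intervals do not cover. Akt1s1 and Ddit4 ranked above 88.6% and 87.1% of the 12119 genes by level per length, and Rictor above 21.1%.

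**Figure D2:**
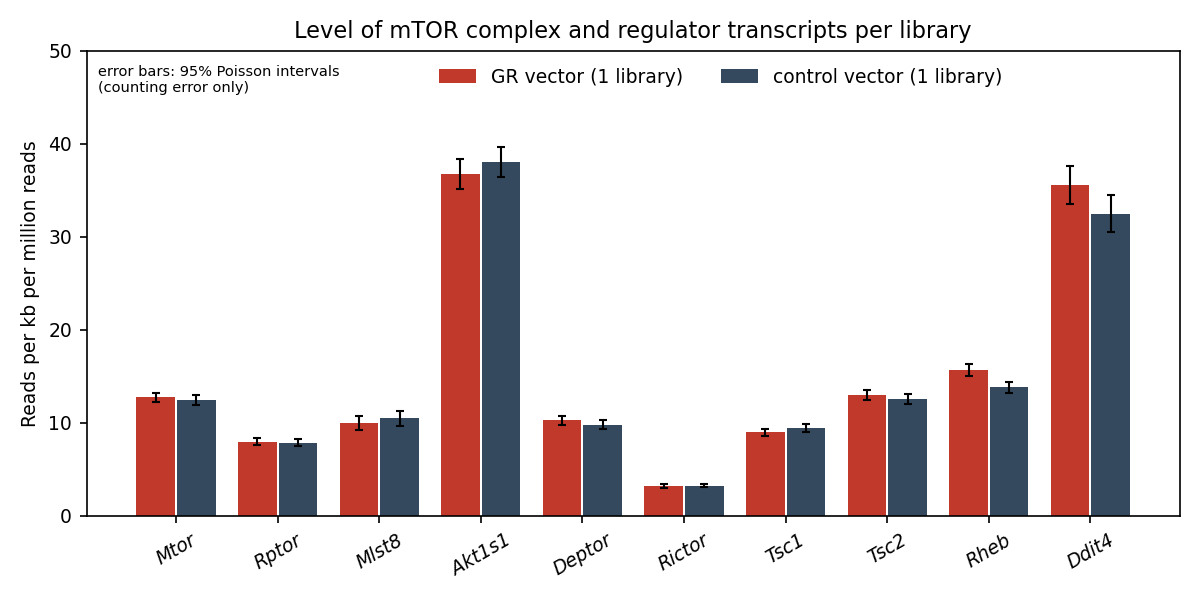
Level of each member in RPKM (reads over gene length and library total), GR vector left of control vector, 1 library each, with 95% Poisson intervals. Akt1s1 and Ddit4 stand above 30 in both libraries, and Rictor is lowest at 3.23 and 3.27.

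**Figure D3:**
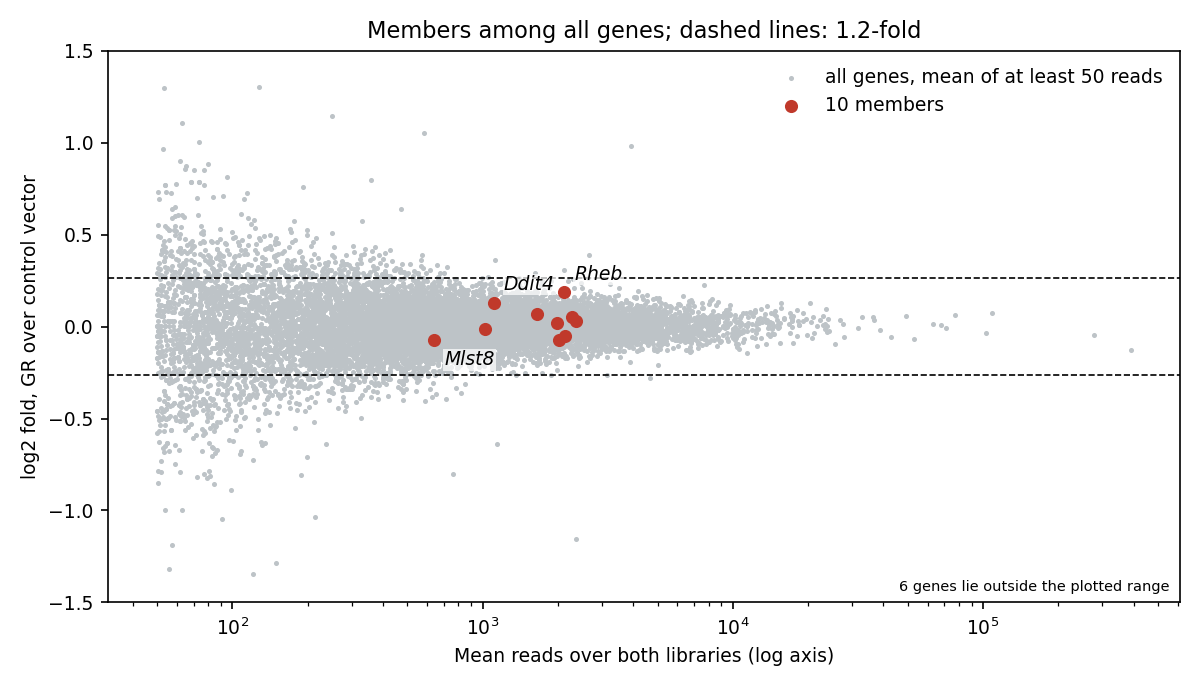
Log2 fold (GR over control vector) against mean reads (log axis) for 12119 genes averaging 50 reads or more, with the 10 members in red and 1.2-fold as dashed lines. The members, with means between 638 and 2360 reads, lie between the dashed lines; 6 genes are outside the plotted range.

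Beyond the members, 12 lists of the wider pathway held 107 further genes, of which 106 were in the table and 98 averaged 50 reads or more. Of these 98, 0 were higher by 1.2-fold (4.03% of all genes) and 2 were lower (3.96%), Tbc1d7 and Rhebl1. The library test called 2 genes higher (2.67% of the 12119 were), Sesn3 and Castor2, and 2 lower (1.85%), Pik3r2 and Slc7a5. The median log2 fold of the 98 was -0.0011, with 48 genes above a fold of 1 and 50 below.

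The 2 genes called higher, of 98 measured, were on the list of sensors. Of the 12119 genes, 2.67% were called higher. Among 9 measured amino acid sensors and folliculin partners, 6 lay above a fold of 1 and 3 below, with a median log2 fold of 0.05. Sesn3, a stress-induced inhibitor of mTORC1 signalling, had 5408 reads with the GR vector and 4958 with the control vector (fold 1.09, 1.05 to 1.14). Castor2, of the arginine sensor family, had 2973 reads with the GR vector and 2725 with the control vector (fold 1.09, 1.04 to 1.15). Both passed the library test (exact binomial, adjusted p = 8.42e-04 and 0.0343), and the fold of Sesn3 was 1.05 once GC and length trends were removed. Bmt2, the S-adenosylmethionine sensor, had the highest fold of this list, 1.19 (584 and 493 reads with the GR and the control vector, 1.05 to 1.34), and did not pass. Sesn2, a leucine sensor, was the most read, with 9800 reads under the GR vector and 10064 under the control vector. Sesn1 had the lowest fold, 0.958 (0.828 to 1.11).

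The lysosomal docking and nutrient-gating complexes held no call. Rag GTPases, Ragulator and Slc38a9 (10 genes, 5 above a fold of 1) had a median log2 fold of 0.0097. They ran from Rragb at a fold of 0.895 (614 and 688 reads with the GR and the control vector) to Rragc at 1.07 (1874 and 1755). Rragd was the most read, with 2095 and 2040. GATOR and KICSTOR genes (11, 5 above 1) had a median of -0.01, from Itfg2 at a fold of 0.953 to Kptn at 1.07, with Sec13 the most read at 2522 reads under the GR vector and 2604 under the control vector. These complexes pass amino acid signals to the Rag GTPases. Chaperones that assemble mTOR (7 genes, 5 above 1) ran from Tti2 at 0.953 to Rpap3 at 1.19 (402 and 340 reads, interval 1.02 to 1.37), around a median of 0.02, with Ruvbl2 at 1480 and 1481 reads.

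Of the energy and growth factor inputs, 1 gene was called. Genes of AMPK, the energy sensor that inhibits mTORC1, and its upstream kinases (9 measured, 3 above 1) had a median log2 fold of -0.01. They ran from Strada at a fold of 0.947 to Prkag1 at 1.07, with Prkaa1 at 3728 reads under the GR vector and 3765 under the control vector. The muscle-type subunit gene Prkag3 had 0 and 3 reads, and Prkaa2 is not among the rows of the table. PI3K to AKT genes (13 measured, 7 above 1) had a median of 0.0042. Pik3r2, a regulatory subunit of PI3K, had 4739 reads with the GR vector and 5214 with the control vector (fold 0.912, 0.876 to 0.948) and was lower in the library test (exact binomial, adjusted p = 6.84e-04). Its fold was 0.957 with GC and length trends removed. Akt2 was the most read, with 7511 and 7719 reads.

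Genes that act below mTOR were close to equal in the libraries. Substrates and effectors (19 measured, 7 above a fold of 1) had a median log2 fold of -0.0082 and no call. They ran from Eef2k, the elongation factor kinase, at 0.873 (308 and 354 reads with the GR and the control vector) to Tfe3, a transcription factor that mTORC1 holds in the cytoplasm, at 1.103 (1099 and 999). Larp1, which binds mRNAs of the translation machinery, was the most read, with 5973 and 5918. Genes induced through Atf4 when mTORC1 is active (12 measured, 7 above 1) had a median of 0.01. Slc7a5, the leucine transporter, had 20290 reads with the GR vector and 21275 with the control vector (fold 0.956, 0.938 to 0.975). It was lower in the library test (exact binomial, adjusted p = 9.16e-04), and its fold was 0.991 with GC and length trends removed. The cystine transporter gene Slc7a11 had the highest fold, 1.12 (1618 and 1448 reads), and Pycr1 the lowest, 0.952, and neither passed.

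Other genes tied to glucocorticoid control of this pathway showed no common direction. Of 6 measured besides Ddit4, 3 lay above a fold of 1 and 3 below, with a median log2 fold of -0.0033. Fkbp5, a co-chaperone of GR, had 2714 reads with the GR vector and 2580 with the control vector (fold 1.06, 0.999 to 1.11). Tsc22d3, which encodes GILZ, had 906 reads with the GR vector and 990 with the control vector (fold 0.918, 0.838 to 1.01). Ddit4l, the paralog of Ddit4, had 4 and 0 reads, and Klf15, a glucocorticoid-induced factor that opposes mTOR in rodent muscle, had 5 and 1. These last were too thinly read for a fold to be read from them.

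**Figure D4:**
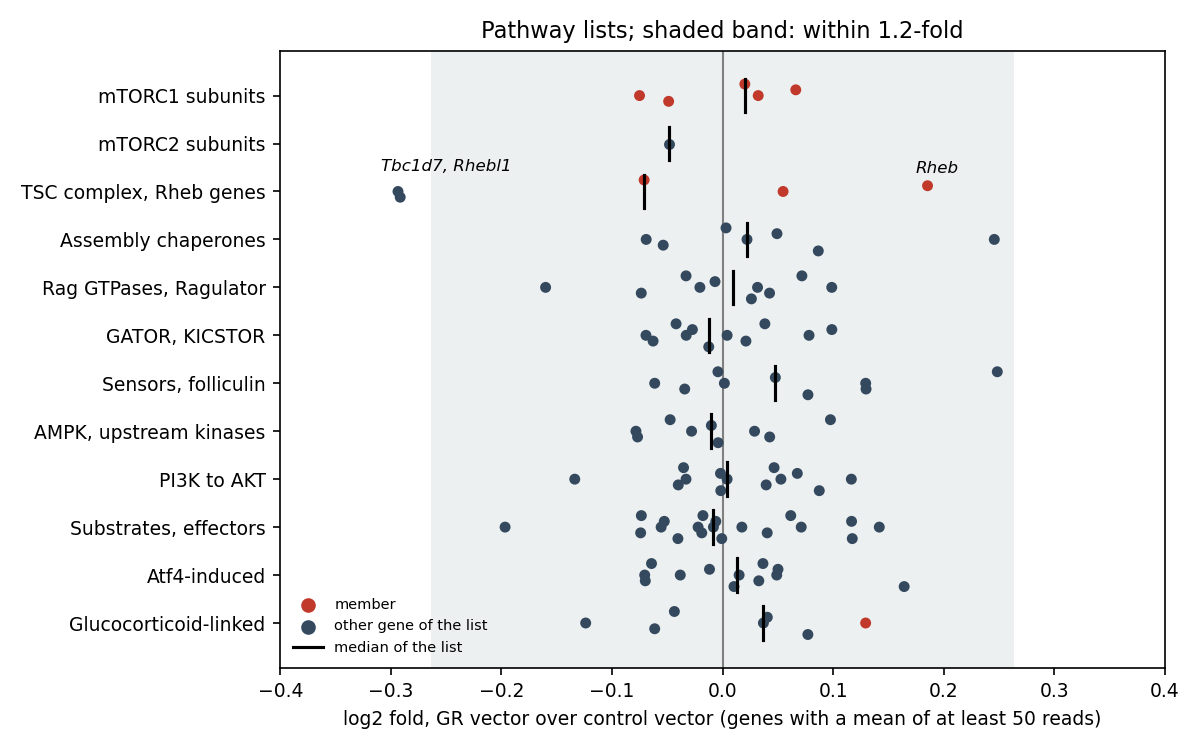
Log2 fold (GR over control vector) for genes averaging 50 reads or more in 12 pathway lists, with members in red, other genes in blue and list medians as black lines. Rictor was on none of the lists and is not shown, and the mTORC2 row holds Mapkap1 alone. All points but Tbc1d7 and Rhebl1 fall inside the shaded 1.2-fold band.

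The authors' deposited gene set report lists the mTOR set and related sets at ranks from 4 to 184 of 307. In that deposited report the mTOR signalling set (153 genes) had a normalized enrichment score of 1.00 and ranked 150th of 307 sets, with an FDR q of 0.983. There the authors' deposited PI3K-AKT set ranked 159th, the AMPK set 184th, the insulin signalling set 109th and the autophagy-animal set 106th. Scores in the authors' report ran only from 0.805 to 1.06 and the lowest q of any set was 0.877, so sets of the report were hardly separated. Mtor, Rptor and Mlst8 also belong to the authors' other autophagy set of 32 genes, which ranked 4th with a normalized enrichment score of 1.05 and a q of 1.00. In the authors' deposited tables all 3 are marked as core enrichment there, with ratios of 1.02, 1.01 and 0.947. Their ranks in the authors' gene list were 9946, 10520 and 15636. The core mark was thus also given to a gene with a ratio below 1, Mlst8.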

How the data were processed

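The authors deposited a table with 1 column per library of gene counts divided by a size factor (a normalized signal). Whole reads were recovered by dividing by the step of each column (100% of values within 0.01 reads of a whole number). The log2 fold change, unadjusted p-value and adjusted p-value are those the authors deposited. The submitters' processing notes name DESeq2 1.10.1, but the deposited p-values equal an exact test of edgeR 4.0.16 with a preset dispersion of 0.04 to within 4.5e-08. Enrichment scores, q-values and the ratio that ranked genes are from the authors' deposited gene set tables. Aligner, counter, strand handling and build go unstated in the labels and headers. Of the gene identifiers, 21516 occur in GENCODE M21 (GRCm38), 96.8% with the same coordinates, including 9 of 10 members (Mlst8 differs, also in length).

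Folds came from recovered reads and TMM-scaled totals, with exact Clopper-Pearson 95% intervals (scipy 1.17.1). Levels used the deposited gene length, with Poisson intervals. The library test was checked on simulated counts. A test of replicates was not possible with 1 library per group. Named genes were all members, Nr3c1 and, per list, the genes past 1.2-fold or the library test, the highest and lowest fold and the most read; overlapping genes and genes near 0 reads were added after their values were seen. One gene that this rule names is not reported here. Members and lists were chosen with earlier results of these data known. At a count of 0, up to 3 reads are possible by counting error.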

Additional observations from a re-analysis of the deposited data

How the results depend on the processing

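No paired analysis was possible because each group is 1 library. The count of 0 members past 1.2-fold was also 0 with total reads or median-of-ratios scaling, with GC and length trends removed and with a minimum of 10, 200 or no reads, and at 1.5-fold; at 1.1-fold it was 1, Rheb. The 2 pathway genes past 1.2-fold became 4 with a minimum of 10 reads, 10 with no minimum and 8 at 1.1-fold, and 0 at 1.5-fold. The library test called Rheb alone among members under both other scalings, at adjusted thresholds of 0.01 and 0.10 and over genes with at least 50 reads. Under edgeR exact tests with preset dispersions of 0.01 and 0.16, 0 members passed. Of 194 alternative values, 184 stayed within the counting interval (for counts, within 1.5 times the count reported) and 10 moved. Among the 10 were the log2 folds of Sesn3, Pik3r2 and Slc7a5 with GC and length trends removed. The library test had called these genes, and the fold of Castor2, also called, stayed. The library test was not rerun with those trends removed. Log2 folds of the 10 members stayed inside their counting intervals under each scaling tried. With the GC and length trends removed, however, Akt1s1 was at 0.01, against -0.05 without, and Rictor at -0.09, against -0.02 without. The cause was not tested. Depth limits what is visible: at the reads of Mlst8 the interval spanned 0.849 to 1.06.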
